A study of Mus musculus with 8 samples.

Results

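The genes described here encode 9 enzymes of one-carbon and sulphur amino acid metabolism: Sardh, Dmgdh, Mat2a, Ahcy, Cbs, Cth, Shmt1, Shmt2 and Mthfd1. They were chosen by symbol, and the choice was made because Sardh and Cbs differ between the groups, so their differences are given as a description. The count of members called by limma is printed once, beside the share of all genes called, and supports nothing. All 9 were among the 24988 genes listed, and 8 passed the filter on low values (0.5 CPM or more on average). CPM are reads scaled by a size set for each library, here equal to its TMM-normalized size. The 8 libraries were made from testis RNA of adult mice, 4 labelled wild type and 4 labelled Kpna2 knockout. Kpna2 is an importin alpha gene, whose product carries proteins into the nucleus. The sources used here do not give the strain, the exact age or the design of the Kpna2 allele, nor how many animals each group holds. The p-values thus rest on the spread among libraries, which may be technical.

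Over the listed genes, libraries held 31133443 to 37797812 reads, recovered from the deposited values as described below. Kpna2 itself was not lower under the knockout label: its level was 13.9 ± 1.11 CPM under the wild-type label and 19.2 ± 2.76 CPM under the knockout label (mean ± SD, n = 4 each). The exact two-sided permutation test of these values gave p = 0.029, the smallest that 4 against 4 allow. Reads were counted per gene and the design of the allele is not given, so these values cannot check the label. Directions are therefore given throughout for the label and not for a loss of Kpna2. The germ cell marker Prm2, a protamine gene, was at 5354 to 7194 CPM in the 8 libraries, and the labelled tissue is testis.

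One-carbon metabolism moves single-carbon units between choline, serine, glycine, methionine and folate. Choline is oxidised to betaine, which gives up a methyl group to become dimethylglycine. In mitochondria Dmgdh turns dimethylglycine into sarcosine, and Sardh turns sarcosine into glycine. Mat2a makes S-adenosylmethionine, the methyl donor of the cell, and Ahcy clears the S-adenosylhomocysteine that methyl transfer leaves behind. Cbs and Cth carry homocysteine on to cysteine, while Shmt1, Shmt2 and Mthfd1 load and convert folate-bound carbon units.

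The bases between Cth and its divergent neighbour, and those before Cbs, are shown first because these genes had lower values, described below. The values are per gene, and which start was used was not measured. Cth (chromosome 3, 157894248 to 157925077, minus strand, GRCm38) and the long non-coding RNA gene 1810013D15Rik (plus strand) begin 0.143 kilobases apart and are transcribed away from each other. Capitals mark matches, on either strand, to 5 motifs: the CCAAT box (the letters CCAAT), the GC box (the letters GGGCGG), the E-box (the letters CACGTG), the TATA box (the letters TATAAA) and the core of the C/EBP-ATF response element (the letters TGATGNAA). The first line, from RefSeq (GRCm38.p6), is chr3:157925082-157925207, plus strand. The second is chr17:31637239-31637455, minus strand, and ends where the first annotated exon of Cbs begins.
Cth to 1810013D15Rik: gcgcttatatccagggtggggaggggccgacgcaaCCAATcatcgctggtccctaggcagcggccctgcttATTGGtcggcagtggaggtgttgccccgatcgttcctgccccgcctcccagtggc
Cbs: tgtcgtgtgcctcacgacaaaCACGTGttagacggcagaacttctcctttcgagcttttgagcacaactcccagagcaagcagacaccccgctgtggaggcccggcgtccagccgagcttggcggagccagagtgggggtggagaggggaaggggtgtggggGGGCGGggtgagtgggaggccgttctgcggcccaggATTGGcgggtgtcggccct

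The stretch between Cth and 1810013D15Rik held 2 CCAAT boxes, 1 on each strand, in 126 bases with a GC content of 65.9%. The Cbs stretch of 217 bases held 1 CCAAT box, 1 GC box and 1 E-box. The full RefSeq window of Cbs, 250 bases, held 2 CCAAT boxes, 2 GC boxes and 1 E-box. Over 32851 windows of 250 bases before RefSeq starts, 33.8% held a CCAAT box, 32.7% a GC box and 6.02% an E-box. These windows are longer than either stretch shown, so the shares are not a like comparison for those stretches. The RefSeq window of Sardh held none of the 5 motifs and 3 CpG, against a median of 6 CpG over all windows, but it lies 1034 bases inside the outermost start of Sardh in GENCODE M21. RefSeq windows were matched for 8 of the 9 genes, the exception being Cth. A match is a description of letters and not of binding.

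Sardh (ENSMUSG00000009614; chromosome 2, 27188393 to 27248337, minus strand, GRCm38) had the largest difference of the 9. It stood at 7.77, 2.71, 4.92 and 3.01 CPM in wild-type replicates 1 to 4 and at 10.7, 13.1, 15.6 and 16.3 CPM in knockout replicates 1 to 4. Every value under the knockout label exceeded every wild-type value, and the means of 4.61 ± 2.33 and 13.9 ± 2.55 CPM (SD, n = 4) differed 3.02-fold. The log2 difference, on log2(CPM + 0.5) and as knockout minus wild type throughout, was 1.58 with an SE of 0.24. The wild-type libraries were themselves far apart, 2.86-fold between lowest and highest, against 1.52-fold under the knockout label. An antisense gene, Sardhos, overlaps 45329 bases of Sardh and was not analysed here. Whether counting used strand was not stated, so reads of overlapping genes on opposite strands cannot be told apart.

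Dmgdh (chromosome 13, 93674433 to 93752833, plus strand), which makes sarcosine from dimethylglycine, was close to the limit of detection. It had 12, 25, 11 and 22 reads in wild-type replicates 1 to 4 and 14, 2, 20 and 6 reads in knockout replicates 1 to 4. In CPM this was 0.356, 0.722, 0.332 and 0.577 against 0.409, 0.0572, 0.646 and 0.175, and the groups overlapped. Dmgdh is the member that did not pass the filter, and a fit without the filter gave a log2 difference of -0.31 with an SE of 0.21. At 70 and 42 reads in all, and with 2 to 20 reads among the libraries labelled knockout, no difference was detectable. Within the wild-type label, replicates 1 and 3 had the higher Sardh and the lower Dmgdh values. Per kilobase of exon the ratio of Sardh to Dmgdh was 2.36 to 13.7 under the wild-type label and 15.2 to 144 under the knockout label, the highest of these resting on 2 Dmgdh reads.

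In the methionine cycle, Mat2a (chromosome 6, 72432799 to 72439558, minus strand) stood at 119, 118, 117 and 122 CPM in wild-type replicates 1 to 4. In knockout replicates 1 to 4 it stood at 102, 107, 100.3 and 94.9 CPM. All 4 knockout-labelled values were lower, and the means of 119.1 ± 2.05 and 101.04 ± 5.09 CPM differed by -15.2% (log2 difference -0.24, SE 0.05). The non-coding gene Particl overlaps Mat2a by 508 bases on the other strand, and it was at means of 11.2 and 12.5 CPM. The pseudogene Gm9523 matches Mat2a at 95.6% over 1164 bases and was at means of 2.46 and 2.40 CPM.

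Ahcy (chromosome 2, 155059310 to 155074497, minus strand) went the other way. It was at 5.07, 5.46, 4.89 and 3.75 CPM in wild-type replicates 1 to 4 and at 6.86, 8.27, 8.52 and 8.56 CPM in knockout replicates 1 to 4. The groups did not overlap, and the mean was 1.68-fold higher, 4.79 ± 0.736 against 8.05 ± 0.805 CPM (log2 difference 0.70, SE 0.12). Ahcy has close copies: Gm4737 on chromosome 16 matches it at 99.7% over 2083 bases, and Gm9826 on chromosome 1 at 99.2% over 1299 bases. Nothing states how multi-mapping reads were handled, so the values of all 3 are uncertain. Gm4737 was the most abundant of them, at 19.8 ± 0.579 and 20.6 ± 1.69 CPM (limma adjusted p = 0.62), and Gm9826 rose from 3.57 ± 0.535 to 5.45 ± 0.702 CPM (limma adjusted p = 0.0078). Ahcy, Gm4737 and Gm9826 summed to 28.1 ± 1.39 CPM and 34.2 ± 2.78 CPM, a 1.21-fold difference, and Ahcy took 13.8% to 18.2% of the sum under the wild-type label and 22.1% to 25.1% under the knockout label. Per kilobase, the ratio of Ahcy to Mat2a was 0.0492 to 0.0742 under the wild-type label and 0.108 to 0.144 under the knockout label, without overlap.

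**Figure D1:**
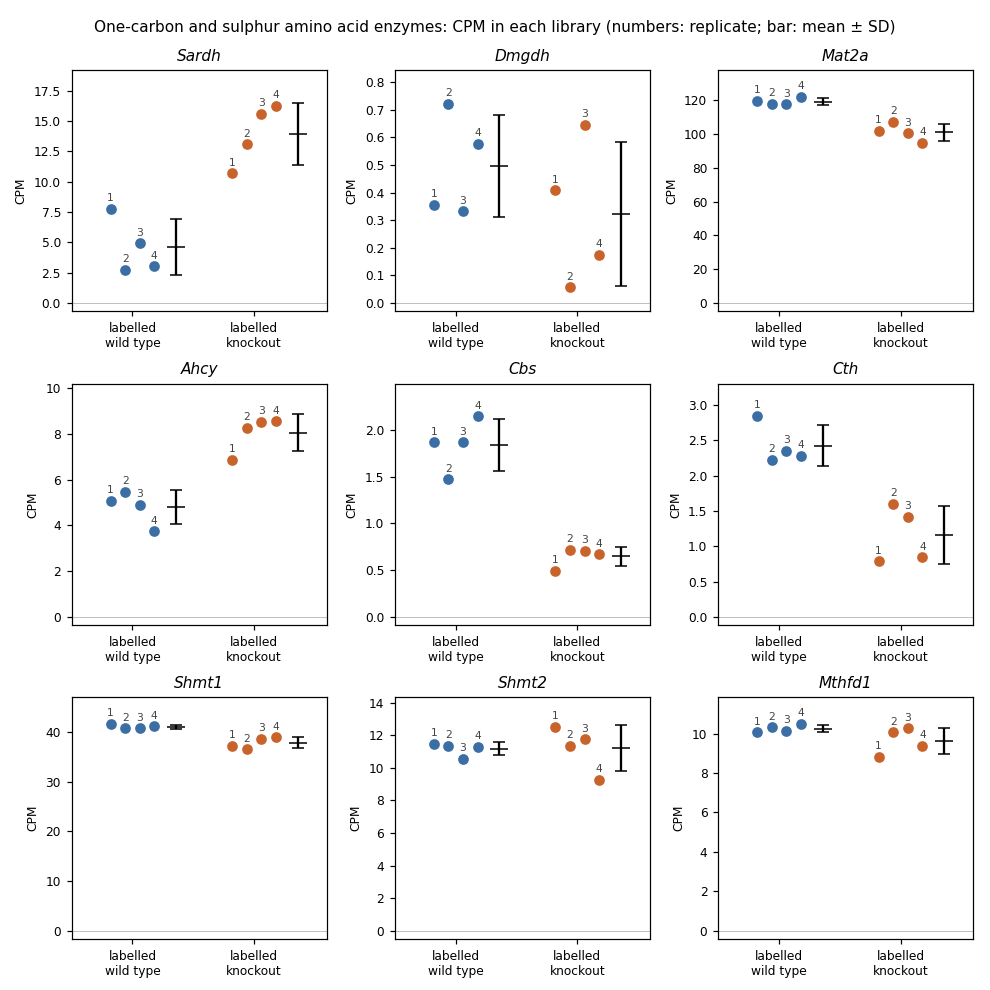
CPM (vertical axes, from 0) of the 9 enzyme genes in the 4 libraries labelled wild type (blue) and the 4 labelled knockout (orange), numbered by replicate, with the mean ± SD in black. Sardh and Ahcy lie higher, and Mat2a, Cbs, Cth and Shmt1 lower, in all 4 libraries labelled knockout, while Dmgdh, Shmt2 and Mthfd1 overlap.

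Both enzymes of the route from homocysteine to cysteine were lower. Cbs, the entry step (ENSMUSG00000024039; chromosome 17, 31608894 to 31637238, minus strand), was at 1.87, 1.47, 1.87 and 2.15 CPM in wild-type replicates 1 to 4. In knockout replicates 1 to 4 it was at 0.496, 0.715, 0.710 and 0.669 CPM. No library overlapped with the other group, and the mean was 2.84-fold lower, 1.84 ± 0.278 against 0.648 ± 0.103 CPM, from 258 and 87 reads in all. The log2 difference was -1.02 (SE 0.14) on log2(CPM + 0.5), -1.38 with a pseudocount of 0.1 CPM and -1.51 by DESeq2 on whole reads, so its size depended on the pseudocount.

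Cth, which releases cysteine from cystathionine, was at 2.85, 2.22, 2.35 and 2.28 CPM in wild-type replicates 1 to 4 and at 0.788, 1.602, 1.42 and 0.844 CPM in knockout replicates 1 to 4. The groups did not overlap, and the mean was 2.09-fold lower, 2.43 ± 0.286 against 1.16 ± 0.409 CPM (log2 difference -0.84, SE 0.17). Knockout replicates 1 and 4 were about as low as each other and stood apart from replicates 2 and 3. The ratio of Cbs to Cth per kilobase, 0.245 to 0.351 under the wild-type label and 0.166 to 0.296 under the knockout label, overlapped.

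The gene that starts next to Cth, across the bases shown above, differed far more than Cth did. 1810013D15Rik had 77, 71, 86 and 103 reads in wild-type replicates 1 to 4 and 0, 1, 0 and 0 reads in knockout replicates 1 to 4. From the pooled reads of each label, scaled by library size, the ratio of wild-type to knockout label was 325, with an exact 95% interval of 57.9 to 12866 for counting error only. It is not one of the 9 enzymes and was tested: its limma adjusted p was 1.9e-08, and all 4 libraries labelled knockout were lower. The 9 genes were chosen without it, but it was singled out after its values were seen.

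**Figure D2:**
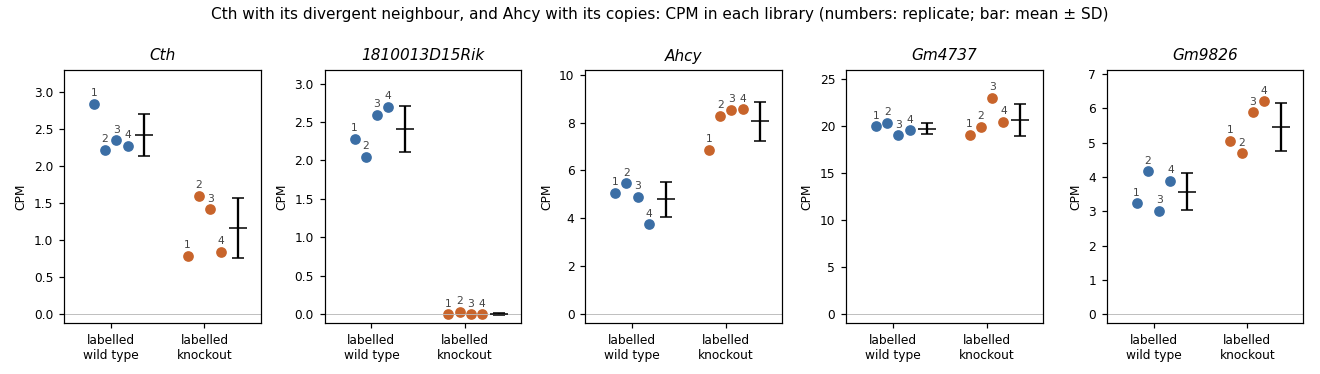
CPM (vertical axes, each with its own scale) of Cth and its divergent neighbour 1810013D15Rik, and of Ahcy and its copies Gm4737 and Gm9826, by library and label, with the mean ± SD in black. 1810013D15Rik has 1 read in all under the knockout label, and Gm4737, the most abundant copy of Ahcy, overlaps between the labels.

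The folate enzymes differed least. Shmt1, the cytosolic serine hydroxymethyltransferase (chromosome 11, 60788104 to 60811718, minus strand), was at 41.7, 40.7, 40.7 and 41.1 CPM in wild-type replicates 1 to 4 and at 37.2, 36.5, 38.6 and 38.9 CPM in knockout replicates 1 to 4. The groups did not overlap although the means, 41.05 ± 0.443 and 37.8 ± 1.13 CPM, differed by only -7.87% (log2 difference -0.12, SE 0.05). Smcr8 overlaps 184 bases of Shmt1 on the other strand, at means of 20.6 and 22.7 CPM. Its mitochondrial counterpart Shmt2 (chromosome 10, 127517123 to 127522444, minus strand) had nearly equal means, 11.2 ± 0.413 and 11.2 ± 1.40 CPM. Its values were 11.5, 11.4, 10.6 and 11.3 CPM in wild-type replicates 1 to 4 and 12.5, 11.4, 11.8 and 9.25 CPM in knockout replicates 1 to 4, the latter spanning the former. Mthfd1, which interconverts folate-bound carbon units (chromosome 12, 76255298 to 76319803, plus strand), was at 10.1, 10.3, 10.1 and 10.5 CPM in wild-type replicates 1 to 4. In knockout replicates 1 to 4 it was at 8.82, 10.1, 10.3 and 9.37 CPM, and the groups overlapped. The ratio of Shmt1 to Shmt2 per kilobase was 2.87 to 3.09 under the wild-type label and 2.38 to 3.37 under the knockout label.

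In all, the 4 against 4 libraries did not overlap for 6 of the 9 genes, 2 of them higher and 4 lower, where 20.9% of all 22027 tested genes did not overlap, 10.1% higher and 10.7% lower. At a limma adjusted p under 0.05, 5 of the 8 tested members were called: Sardh and Ahcy higher, and Mat2a, Cbs and Cth lower, where 16.9% of all tested genes were called, 8.62% higher and 8.32% lower. The choice of members used this contrast, so nothing is read from either count. The median log2 difference of the 8 was -0.10, and that of all tested genes was -0.01.

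Levels between genes were compared per kilobase of exon (GENCODE M21). In the libraries labelled wild type the order was Mat2a (26.6 ± 0.457 CPM per kilobase), Shmt1 (10.6 ± 0.114), Shmt2 (3.59 ± 0.133), Mthfd1 (2.31 ± 0.0423), Ahcy (1.71 ± 0.262), Cth (0.869 ± 0.103), Sardh (0.848 ± 0.428), Cbs (0.246 ± 0.0371) and Dmgdh (0.145 ± 0.0546). Cth and Sardh were within each other's range, as were Cbs and Dmgdh, and the other neighbours in the order did not overlap. Under the knockout label Ahcy (2.87 ± 0.287 CPM per kilobase) and Sardh (2.56 ± 0.469) stood above Mthfd1 (2.17 ± 0.150). There the ranges of Shmt2 and Ahcy, of Ahcy and Sardh, of Sardh and Mthfd1 and of Dmgdh and Cbs overlapped. The place of Ahcy under both labels is uncertain, because how reads shared with its copies Gm4737 and Gm9826 were counted is not stated.

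**Figure D3:**
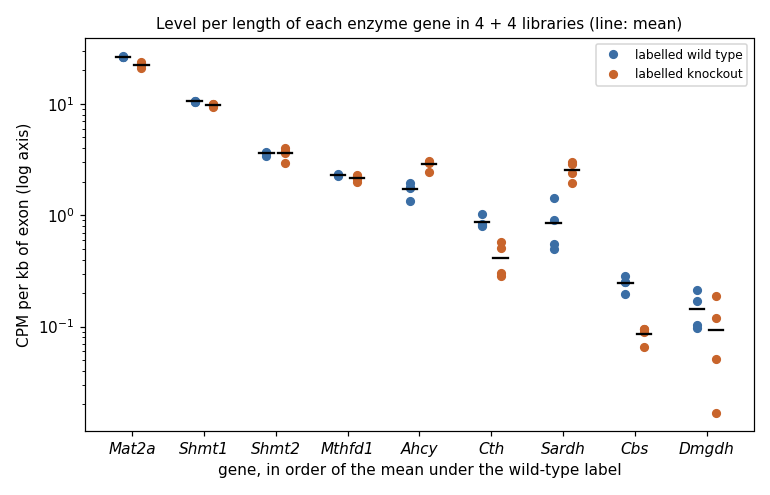
CPM per kilobase of exon (vertical log axis) of each enzyme gene in the 4 libraries labelled wild type (blue) and the 4 labelled knockout (orange), with black lines at the means. Sardh moves from beside Cth, near 0.85 CPM per kilobase, to beside Ahcy and Mthfd1. The level of Ahcy is uncertain because of its close copies.

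Testis RNA comes from many cell types, and fewer cells of a type and less RNA per cell cannot be told apart in these libraries. Of 8 markers of Leydig cells, which make androgens, 4 fell and 1 rose, where 16.9% of all tested genes were called. The 1 that rose, Hsd3b1, changed most, from 22.4 ± 1.84 to 83.9 ± 14.2 CPM (limma adjusted p = 2.6e-08). Insl3, the most abundant, stood at 434 ± 16.4 and 401 ± 86.9 CPM (limma adjusted p = 0.47). The summed level of the 8 was 1123 to 1324 CPM under the wild-type label and 746 to 1164 CPM under the knockout label. Among the libraries labelled knockout that sum was lowest in replicates 1 and 4 (746 and 902 CPM, against 1164 and 1083 CPM), the same 2 libraries in which Cth was lowest. The Sertoli, peritubular myoid, macrophage and adipocyte sums were also lowest in these 2 of the 4 libraries, and the endothelial and hepatocyte sums were not. Of 5 peritubular myoid markers 3 fell (summed 66.5 to 89.4 against 43.9 to 61.4 CPM), of 5 endothelial markers 2 (30.3 to 33.9 against 23.5 to 29.2 CPM), and of 10 Sertoli cell markers 3 (1098 to 1193 against 961 to 1110 CPM), with none higher in these lists. Liver makes much of this pathway's enzymes. Of 5 hepatocyte markers 4 were in the analysis, of which 3 were tested and 2 fell, Apoa2 and Fgb. Fgb was low throughout, at 0.804 ± 0.160 and 0.301 ± 0.141 CPM. The other tested marker, Serpina1a, was not called (0.524 ± 0.217 and 0.576 ± 0.139 CPM, limma adjusted p = 0.78). All 4 summed to 4.04 to 7.16 CPM under the wild-type label and 1.42 to 2.71 CPM under the knockout label. In wild-type replicates 1 and 3, where Sardh was higher, that sum was 4.04 and 4.20 CPM, and in replicates 2 and 4 it was 7.16 and 6.37 CPM. Apoa2 made up most of it, at 2.31, 5.40, 3.23 and 4.72 CPM in wild-type replicates 1 to 4. The Leydig, peritubular myoid and adipocyte sums were also lower in wild-type replicates 1 and 3 than in 2 and 4. The Sertoli, endothelial and macrophage sums were not split in this way. Of 4 tested adipocyte markers 1 fell (all 5 summed to 26.8 to 40.1 against 17.6 to 28.4 CPM), and of 7 macrophage markers none was called (83.8 to 92.4 against 72.3 to 97.04 CPM). Among germ cell markers, 2 of 6 spermatogonial and 2 of 6 spermatocyte markers fell, and none of 6 round and 6 elongating spermatid markers was called. Of the markers in the analysis only Cfd, an adipocyte gene, was at 0, in knockout replicate 4; 6 epididymal markers and Alb were not analysed here. The part of these lists in the values of the 9 enzymes was not tested.

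The other genes of the pathway were read from a list of 67 symbols, of which 65 were measured and tested. By limma, 4 of the 65 rose and 6 fell, 15.4%, close to the 16.9% called among all tested genes, and their median log2 fold change was -0.07. The 6 lower calls were 3 without knockout replicate 4, where Etfb, Atic and Cdo1 were not called. In that setting 2944 genes were called over all, against 3731 with every library.

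Around Sardh and Dmgdh, 1 of 11 genes of the choline and sarcosine route rose and 2 fell. Bhmt, which passes a methyl group from betaine to homocysteine and leaves dimethylglycine, rose from 32.04, 45.3, 45.2 and 38.4 CPM in wild-type replicates 1 to 4 to 50.9, 84.8, 71.2 and 66.8 CPM in knockout replicates 1 to 4. All 4 knockout-labelled values were higher (40.2 ± 6.32 against 68.4 ± 14.0 CPM, limma adjusted p = 0.0016). Pemt, which uses S-adenosylmethionine to make phosphatidylcholine, fell 1.63-fold from 22.2 ± 1.17 to 13.6 ± 0.150 CPM, and the 4 knockout-labelled libraries were within 13.5 to 13.8 CPM (limma adjusted p = 8.02e-06). Etfb, a subunit of the flavoprotein that takes up electrons from Sardh and Dmgdh, fell from 10.9 ± 1.59 to 8.24 ± 0.968 CPM (limma adjusted p = 0.032), and Etfa and Etfdh were not called. The Etfb call was lost in 4 of 18 alternatives, without wild-type replicate 1 (limma adjusted p = 0.10), wild-type replicate 2 (0.064), knockout replicate 3 (0.086) or knockout replicate 4 (0.067). Aldh7a1, which oxidises betaine aldehyde, stood at 58.3 ± 2.32 and 54.6 ± 5.50 CPM (limma adjusted p = 0.36).

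Among 7 further genes of the methionine cycle, Slc25a26, which carries S-adenosylmethionine into mitochondria, rose from 18.7 ± 0.801 to 23.4 ± 1.87 CPM (limma adjusted p = 0.0077), and none fell. Ahcyl2, an Ahcy-like protein gene, stood at 126 ± 7.82 and 138 ± 8.88 CPM (limma adjusted p = 0.13).
Of 19 further folate genes, Ggh, which trims folate polyglutamates, rose from 12.7 ± 0.413 to 15.5 ± 1.37 CPM (limma adjusted p = 0.028). Atic, of purine synthesis, fell from 16.9 ± 1.87 to 13.8 ± 1.01 CPM (limma adjusted p = 0.043). The Ggh call was lost in 6 of 18 alternatives, without wild-type replicate 1, 2 or 4 or knockout replicate 1 or 2 and with a replicate block (limma adjusted p = 0.052 to 0.079). The Atic call was lost in 7, without wild-type replicate 1, 3 or 4 or knockout replicate 2, 3 or 4 and with quantile normalization (limma adjusted p = 0.058 to 0.12).

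Of 9 genes of serine and glycine synthesis and cleavage, Psat1, an enzyme of serine synthesis, fell from 22.5 ± 0.636 to 17.5 ± 0.711 CPM (limma adjusted p = 0.0015), and Dld stood at 81.6 ± 6.55 and 81.2 ± 3.27 CPM. Of 10 genes downstream of cysteine, Tst, a sulphur transferase, fell from 19.8 ± 0.270 to 15.3 ± 0.707 CPM and Cdo1, which oxidises cysteine, from 5.82 ± 0.325 to 4.34 ± 0.440 CPM (limma adjusted p = 0.0015 and 0.018). The Cdo1 call was lost without wild-type replicate 4 (limma adjusted p = 0.053) or knockout replicate 4 (0.0503). Sqor, which oxidises hydrogen sulphide, was the most abundant of these at 369 ± 26.1 and 366 ± 12.7 CPM (limma adjusted p = 0.92). In the methionine salvage and polyamine list of 9, Enoph1, a salvage enzyme, rose from 22.7 ± 0.815 to 26.9 ± 0.725 CPM (limma adjusted p = 0.011), and Odc1, which makes putrescine, stood at 201 ± 8.32 and 222 ± 9.43 CPM (limma adjusted p = 0.054).

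**Figure D4:**
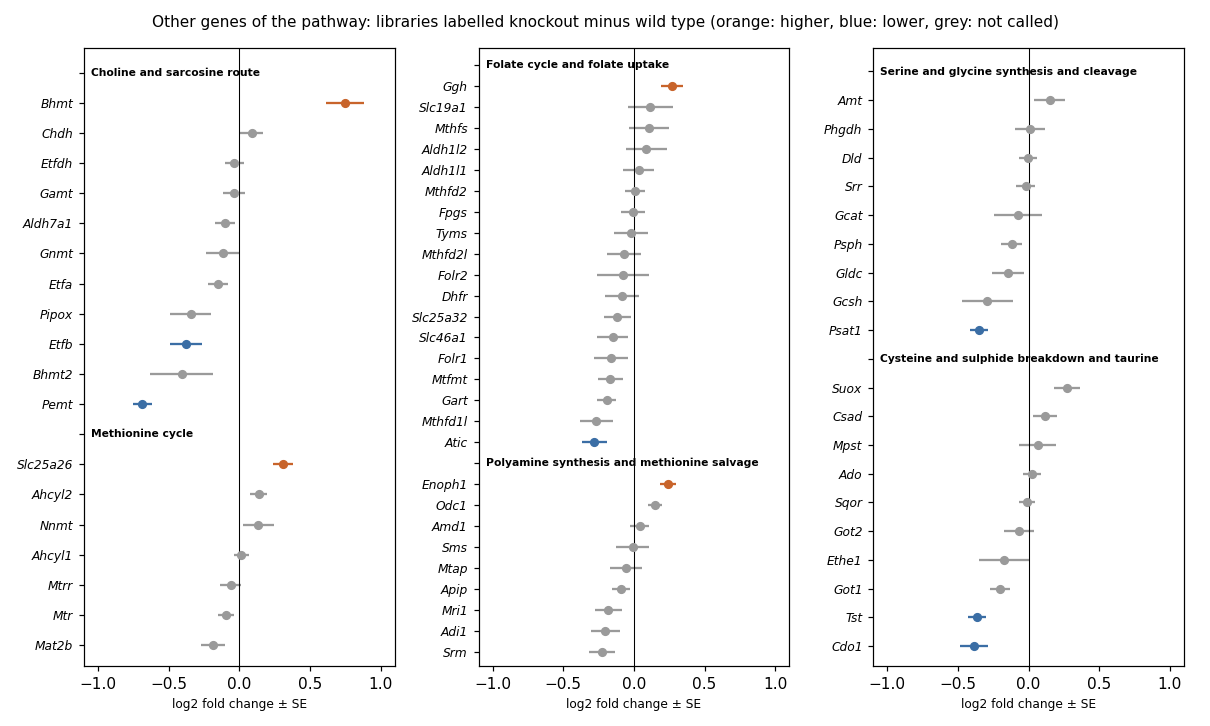
Log2 fold change ± SE (horizontal axis, knockout minus wild-type label, on log2(CPM + 0.5)) of 64 other genes of the pathway in 6 lists, with genes called by limma in orange (higher) and blue (lower). Bhmt at 0.75 and Pemt at -0.69 lie farthest from 0 among the called genes.

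The genes beside each enzyme gene were examined because position played no part in the choice. Of 90 distinct genes, the 5 nearest tested on each side, 7 rose and 12 fell (21.1%, against 16.9% of all tested genes). The count of 19 was 12, 10 and 11 when wild-type replicate 1, wild-type replicate 2 or knockout replicate 4, respectively, was left out. Called genes over all went from 3731 to 2791, 2826 and 2944 in these same settings. Of the 10 neighbours of Sardh only Rexo4 was called (22.5 ± 1.94 to 18.04 ± 1.01 CPM, log2 fold change -0.31), and of the 10 of Cbs only Hsf2bp (51.96 ± 1.64 to 46.1 ± 0.755 CPM, log2 fold change -0.17). Beside Dmgdh, Bhmt started 36.5 kilobases away and rose as given above, and Bhmt2, a related gene between them, was at 1.79 ± 0.651 and 1.22 ± 0.466 CPM (limma adjusted p = 0.24). None of the neighbours of Shmt2 or Mthfd1 was called by limma.

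**Figure D5:**
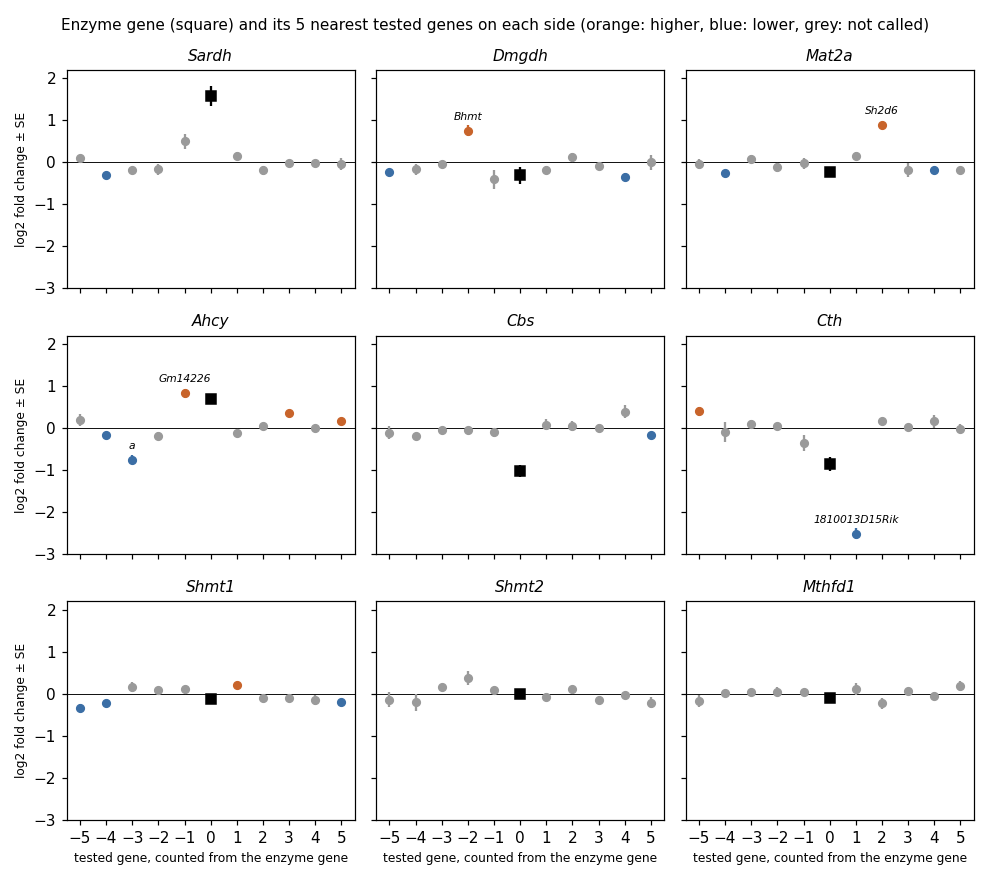
Log2 fold change ± SE (vertical axis) of each enzyme gene (square) and of its 5 nearest tested genes on either side, counted along the chromosome (horizontal axis), with called genes in orange (higher) and blue (lower). The square of Sardh lies at 1.58 and that of Cbs at -1.02, and beside Cth the gene 1810013D15Rik lies at -2.51.

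The genes whose log2 values were most correlated with Sardh over the 8 libraries, among those with a mean of at least 5 CPM, were Btf3l4 (Pearson r = 0.989), Vopp1 (0.981), Ccdc42os (0.975), Myo18a (0.967) and Pgbd5 (0.967). Those most correlated with Cbs were Atg4b (0.994), Ddx59 (0.990), Nfs1 (0.990), Sec24d (0.988) and Agpat4 (0.987). These are descriptions: the 8 libraries share the difference between the labels, which both members of each pair show, and the highest of many correlations were taken. Btf3l4 was at 15.4 ± 1.71 and 21.2 ± 1.11 CPM and Sec24d at 6.32 ± 0.571 and 3.74 ± 0.363 CPM under the wild-type and knockout labels.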

How the data were processed

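Adult testis RNA was extracted with TRIzol, treated with DNase and made into TruSeq libraries (per the labels' protocols). Trimmomatic, Subread, featureCounts and GRCm39 are named in the submitters' processing notes, without versions, annotation or strand setting. The authors deposited a per-library scaled signal, named CPM. Every value was a whole multiple, within 0.01, of its column's smallest value above 0, so whole reads were recovered (100% of values), and the implied library sizes equalled TMM library sizes. Columns named control and kpn were matched to titles by number. limma 3.58.1 in R 4.3.3 (mean-variance trend) was fitted on log2(CPM + 0.5) to the 22027 genes averaging 0.5 CPM or more, with Benjamini-Hochberg adjustment over all of them and a threshold of 0.05. The plan had taken the unit to be plain CPM, and the same test was kept. The two-sided Kpna2 permutation test was exact (scipy 1.17.1).

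Gene positions and lengths came from GENCODE M21 (GRCm38), another build than the authors used, and nothing was converted. Symbols were found for 24890 identifiers. Copies were matches of at least 90% over at least 500 bases between transcripts (BLAST 2.17.0). The 9 members, gene lists and naming rules were chosen with earlier results of these data known. Named were all members and, of each pathway list, up to 3 called genes of smallest p per direction. The most abundant uncalled gene of each list was also named (of the folate list none). Called neighbours of Sardh and Cbs were named too, as were the 5 genes most correlated with each of these members, clone and predicted-gene names left out. No pair of libraries with the same label agreed within sampling noise (chi-square per degree of freedom 4.63 to 11.7). The limma test was also tested on simulated counts in which every gene was given the same dispersion. Real genes differ in this, so no error rate for the calls is taken from it. Alternatives were scalings (median-ratio, TMM and quantile), other pseudocounts and filters, a replicate block and each library left out. Also run were edgeR 4.0.16 (quasi-likelihood) and DESeq2 1.42.0 (Wald) on the recovered reads. The TMM setting repeated the main fit, so it could not lose a call, and it is counted among the 18 alternatives. A floor of 3 reads per library is 0.0786 to 0.0968 CPM, for counting error only. The values of 1 listed pathway gene are not reported here, although it stays in the counts.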

Additional observations from a re-analysis of the deposited data

Results flagged for a closer look

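In 7 of 150 groups of 4 libraries, formed by the 9 enzyme genes, 65 other pathway genes and Kpna2, 1 library stood far from the other 3 by Dixon's test, and chance alone flags about 1 group in 20. Ahcy was at 6.86 CPM in knockout replicate 1 and at 8.27 to 8.56 CPM in the other 3. Etfdh was at 23.7 CPM in knockout replicate 2 and at 20.7 to 21.2 CPM in the others, and Gart at 34.3 CPM in knockout replicate 1 against 31.6 to 31.8 CPM. Gcsh, a subunit of glycine cleavage, was at 18.6 CPM in knockout replicate 3 and at 8.44 to 9.69 CPM in the other 3 of its group. Mtap was at 6.78 CPM in knockout replicate 3 against 4.83 to 5.14 CPM. In wild-type replicate 3, Tst was at 20.2 CPM against 19.6 to 19.7 CPM and Got2 at 4.80 CPM against 5.55 to 5.58 CPM.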

How the results depend on the processing

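As a description of members chosen on this contrast, log2 differences over 18 alternatives (17 for Cbs and Cth, which the filter at 2 CPM leaves out) ranged from 1.32 to 1.85 for Sardh, 0.57 to 0.77 for Ahcy, -0.27 to -0.21 for Mat2a, -1.51 to -0.53 for Cbs and -1.06 to -0.49 for Cth, the last 2 by pseudocount and tool. Called genes over all ranged from 2791 to 4073, and from 2791 to 3571 with 1 library left out. On the recovered whole reads edgeR called 3694 genes and DESeq2 3977. Pathway genes called higher ranged from 3 to 6 and lower from 3 to 6, and called neighbours from 10 to 17, with 1 library left out. The Kpna2 difference was 4.43 to 6.57 CPM with 1 library left out, where 3 against 4 libraries cannot give a p under 0.057. The numbers shared by the groups did not pair the libraries: deviations of same-numbered libraries correlated at -0.03 to 0.04, and 1 of 8 libraries correlated best with its own number. With the replicate block 3446 genes were called against 3731, and Ggh was not (limma adjusted p = 0.052). Depth limits Dmgdh, with 2 to 25 reads per library, and Cbs, with 17 to 82. Dmgdh was also uneven among the libraries labelled knockout, at 14, 2, 20 and 6 reads.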

Other observations

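Beside Ahcy, 5 of 10 neighbouring tested genes were called, named here after their values were seen. The share called was 21.1% over the 90 distinct neighbours of all members and 16.9% over all tested genes. Gm14226 rose from 27.5 ± 2.87 to 49.7 ± 8.17 CPM (limma adjusted p = 0.00012), and the agouti gene, a coat colour gene, fell from 6.79 ± 0.935 to 3.83 ± 0.259 CPM (limma adjusted p = 0.00036). The annotated agouti gene spans Gm14226 on the same strand, and how reads shared by overlapping genes were counted is not stated. Map1lc3a, an autophagy gene, rose from 234 to 302 CPM. Trp53inp2 rose from 133 ± 5.08 to 151 ± 10.1 CPM (limma adjusted p = 0.038). Raly, which also overlaps agouti, fell from 56.9 ± 2.14 to 50.6 ± 2.09 CPM (limma adjusted p = 0.044). Beside Mat2a, Sh2d6 rose from 17.1 ± 0.474 to 31.9 ± 1.97 CPM (limma adjusted p = 6.5e-07), opposite in direction to Mat2a itself.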
